A study of Homo sapiens with 6 samples.

Results

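The genes described here are 42 members of the ATF4 programme and of amino acid supply, chosen by name: kinases and transcription factors of the integrated stress response, amino acid transporters, and enzymes of amino acid synthesis and one-carbon metabolism. They were chosen with earlier results of these data known, so shares of calls among them are descriptive. Of the 42 genes, 39 were measured, out of 17534 genes in all, each through the brightest of the probe sets that name it alone. CBS was represented only by probe sets that also name a second locus, so it was not counted among the 39. MTHFD1L and GPT2 were not measured. Expression was read on Affymetrix PrimeView arrays, on which a gene has 1 or more probe sets, in MM.1R, a human multiple myeloma cell line that does not respond to glucocorticoids. In 3 arrays the cells had been given epirubicin hydrochloride, an anthracycline that poisons topoisomerase II, and the other 3 hold cells infected with a short hairpin control (shCtrl). All cells grew in 1640 medium with serum. No source used here gives the dose or duration of epirubicin. Since no vector is named for the epirubicin cells, an effect of the vector and one of the drug cannot be told apart. It is not stated whether replicate arrays had separate cultures behind them, and the p-values measure only the spread between arrays, which may be technical.

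In the integrated stress response, 4 kinases each sense a different stress and phosphorylate the initiation factor eIF2: EIF2AK4 (GCN2) senses uncharged tRNA, EIF2AK3 (PERK) misfolded protein in the endoplasmic reticulum, EIF2AK2 (PKR) double-stranded RNA and EIF2AK1 (HRI) haem shortage and mitochondrial stress. Phosphorylated eIF2 slows translation in general but favours translation of ATF4 mRNA, so ATF4 protein can change without its transcript. ATF4 binds with C/EBP proteins to response elements of genes for amino acid uptake, serine, asparagine and proline synthesis and tRNA charging. Plasma cells, which make large amounts of immunoglobulin, draw heavily on this supply.

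The arrays carried the profile of plasma cells. Of 9 plasma cell markers, 8 lay above 5.545, the median of all values, on every array, and their mean was 11.04 to 11.07 in epirubicin arrays and 11.27 to 11.28 in shCtrl arrays. Of the 9, CD38 and IRF4 were lower with epirubicin. The 6 myeloid, 5 stromal and 4 epithelial markers held 0 genes above that median on all arrays, and 0 of them were called, as with 5 T and NK cell markers and 3 B cell markers, among which NKG7 and PAX5 lay above the median. Array medians ran from 5.52 to 5.57. The 3 epirubicin medians (5.56 to 5.57) lay above the 3 shCtrl medians (5.52 to 5.54), and arrays were not centred in the main fit.

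With epirubicin, the stress transcription factor gene DDIT3 (CHOP) rose 2.90-fold, PPP1R15A (GADD34), which directs a phosphatase to eIF2, rose 1.79-fold, and CTH, the enzyme that makes cysteine from cystathionine, rose 1.73-fold. The transporter gene SLC38A2 rose 1.49-fold. ASNS, PSAT1 and PHGDH, enzymes whose transcripts are commonly used as readouts of ATF4, differed by 1.12-, 1.16- and 1.13-fold and were not called. Of the 39 measured genes 9 were called higher and 2 lower, where a call needs an adjusted p under 0.05 in limma and a fold change of at least 1.3, which is 0.379 on the log2 scale. That is 23.1% called higher and 5.13% called lower, beside 4.36% and 2.14% of all genes. Their median log2 fold change was 0.17, against 0.02 over all genes. Tested against a fold of 1.3 itself (limma's treat), DDIT3, PPP1R15A, ATF5, SLC38A2 and CTH were higher and 0 were lower, beside 1.55% and 0.519% of all genes. These arrays read RNA from whole cultures, in which fewer cells of a kind and less RNA per cell cannot be told apart.

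Smaller differences were common. At an adjusted p under 0.05 and any fold, 20 of the 39 were higher and 5 lower, which is 51.3% and 12.8%, beside 15.6% and 13.5% of all genes. The 5 were EIF2AK2, SLC7A5, SLC1A5, PYCR1 and ALDH18A1. Of the 28 genes that were not called, 23 had a 95% confidence interval (CI) that lay wholly inside a 1.3-fold change in either direction. These intervals are for the probe set used. The other 5 were EIF2AK4, JDP2, TRIB3, CHAC1 and SLC6A9, whose intervals reached past it. SLC7A11 and PSPH are among the 23, although other probe sets of each were called higher. The epirubicin and shCtrl arrays did not overlap for 31 of the 39, or 79.5%, beside 43.8% of all genes. The shares of all genes are not matched for expression level, and 30 of the 39 had both group means above the median of all values. Of the 123 probe sets that name these genes alone, 24 were called higher and 3 lower, which is 19.5% and 2.44%, beside 3.65% and 2.62% of all 47481 probe sets. Among 31 genes with several probe sets, all probe sets had the same call in 27, and SLC7A5, SLC7A11, PSPH and PCK2 were the exceptions.

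**Figure D1:**
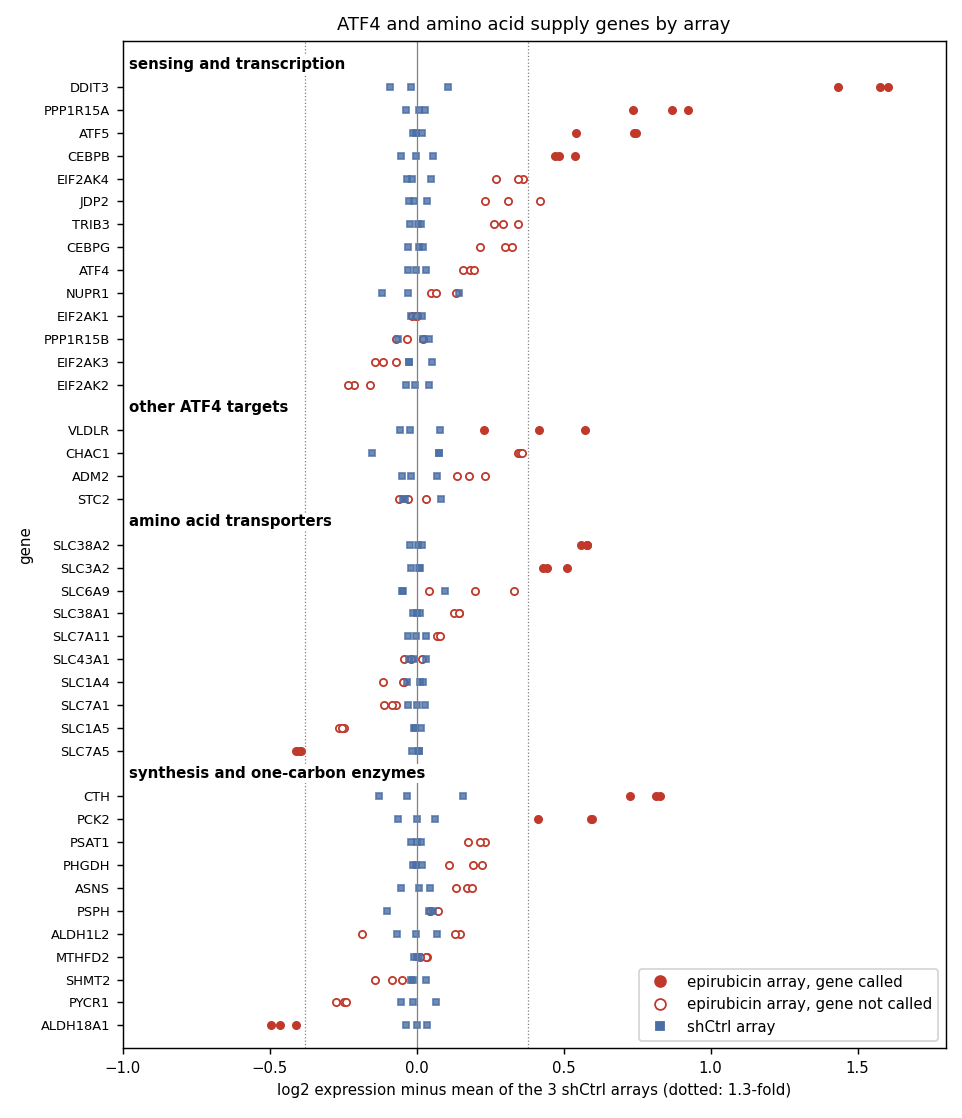
Each row is 1 of the 39 measured genes, grouped by role, and each point is 1 array, placed by its log2 expression minus the mean of the 3 shCtrl arrays (horizontal axis). Filled circles are epirubicin arrays of the 11 called genes, open circles those of the other 28, and squares shCtrl arrays. DDIT3 stands farthest to the right, while SLC7A5 and ALDH18A1 lie to the left of the dotted line at a 1.3-fold decrease.

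Promoter letters are shown here because the genes are named for a shared regulator. RefSeq promoters of GRCh38.p14, each reaching from 250 bases before to 50 after a transcript start, were found for 34 of the 42 genes, and 3 motifs were searched in them on both strands. The core of the C/EBP-ATF response element, TGATGNAA, was found in promoters of 11 of the 34 genes (32.4%), against 4.46% of all genes with a promoter. By promoter it was in 13 of their 57, against 3.62% of all 35116. The genes were chosen by name as members of the ATF4 programme, so these shares are descriptive. Genes with more promoters have more places for a match, and the 34 genes had 57 promoters, against 35116 for 27305 genes. Of these 11 genes 10 were measured, of which 1, SLC3A2, was called higher, 0 were called lower and 9 were not called. Over all measured genes the core was in 5.12% of those called higher, 2.22% of those called lower and 3.59% of the others. The E-box CACGTG, a site for MYC and other basic helix-loop-helix factors, was found in promoters of 7 genes (20.6%), against 8.77% of all genes. Both genes called lower, SLC7A5 and ALDH18A1, were among them, with 4 that were not called and 1 that was not measured, and over all measured genes 17.7% of those called lower held it, 13.1% of those called higher and 10.7% of the others. The AP-1 search used TGANTCA, which allows any base at its centre and is looser than the AP-1 site, so its shares are not those of AP-1 sites alone. TGANTCA was found in promoters of 5 genes (14.7%), against 9.37% of all genes. Of these 5, 3 were called higher and 2 were not called, and over all measured genes 10.4% of those called higher held it, 4.75% of those called lower and 8.16% of the others. In these genes no match of one motif overlapped a match of another. A match is a description of letters, not a binding site.

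The windows below read 5′ to 3′ on the gene's strand, with the motif in capitals and up to 20 bases on each side. The first 4 hold the response element core, in 4 of the 9 genes with it that were not called, starting 68 (ASNS), 209 (CHAC1), 42 (CEBPG) and 97 (SLC1A5) bases before a transcript start. The match in SLC3A2, which was called, begins at base 38 after a start and is not shown. The next 5 hold TGANTCA, which reads TGATTCA in EIF2AK4 and TGACTCA in the others. It begins 241 (DDIT3), 188 (ATF5) and 37 (SLC3A2) bases before a start in genes that rose. In genes that were not called it begins 212 (EIF2AK4) and 57 (SLC38A1) bases before a start. The last 3 hold an E-box, at 130 (SLC7A5) and 136 (ALDH18A1) bases before a start in the genes that fell and at 82 (ATF4) in 1 of the 4 that were not called. They lie at chr7:97872449-97872496 on the minus strand (ASNS), chr15:40953242-40953289 on the plus strand (CHAC1), chr19:33374051-33374098 on the plus strand (CEBPG), chr19:46784884-46784931 on the minus strand (SLC1A5), chr12:57520729-57520764 on the minus strand (DDIT3), chr19:49928698-49928744 on the plus strand (ATF5), chr11:62881642-62881688 on the plus strand (SLC3A2), chr15:39933883-39933929 on the plus strand (EIF2AK4), chr12:46266547-46266593 on the minus strand (SLC38A1), chr16:87869612-87869657 on the minus strand (SLC7A5), chr10:95656822-95656867 on the minus strand (ALDH18A1) and chr22:39520457-39520502 on the plus strand (ATF4).
ASNS: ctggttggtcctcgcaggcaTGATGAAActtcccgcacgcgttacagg
CHAC1: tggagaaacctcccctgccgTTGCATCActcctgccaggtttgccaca
CEBPG: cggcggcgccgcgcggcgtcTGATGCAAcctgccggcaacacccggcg
SLC1A5: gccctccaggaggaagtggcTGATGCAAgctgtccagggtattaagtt
DDIT3: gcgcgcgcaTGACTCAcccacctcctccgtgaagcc
ATF5: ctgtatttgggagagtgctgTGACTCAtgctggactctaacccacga
SLC3A2: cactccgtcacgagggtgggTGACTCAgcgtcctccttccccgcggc
EIF2AK4: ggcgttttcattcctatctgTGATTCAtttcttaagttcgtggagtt
SLC38A1: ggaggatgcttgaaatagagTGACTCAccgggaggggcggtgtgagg
SLC7A5: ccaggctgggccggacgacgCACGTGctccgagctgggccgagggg
ALDH18A1: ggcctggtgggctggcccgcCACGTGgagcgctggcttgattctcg
ATF4: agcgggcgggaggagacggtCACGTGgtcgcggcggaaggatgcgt

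Among the kinases, EIF2AK4 had the largest difference. It read 8.07, 8.16 and 8.15 in epirubicin arrays, against 7.77, 7.79 and 7.85 in shCtrl arrays, all on the log2 scale. The groups did not overlap, and the difference of 0.33 (CI 0.23 to 0.42, limma adjusted p = 0.00165) was under the fold threshold; its second, dimmer probe set differed by 0.11. EIF2AK2 lay below its shCtrl arrays on every epirubicin array, at a difference of -0.20 (CI -0.29 to -0.11). EIF2AK3 differed by -0.11 (CI -0.20 to -0.02, limma adjusted p = 0.0786). Its other 2 probe sets differed by -0.22 (limma adjusted p = 0.0308 over all probe sets) and -0.16 and were not called. EIF2AK1, with 8 probe sets of which 0 were called, differed by -0.01 on the one used, and its probe sets ran from -0.21 to -0.01.

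ATF4 itself read 11.06, 11.09 and 11.10 in epirubicin arrays, against 10.94, 10.87 and 10.90 in shCtrl arrays. Every epirubicin array was higher than every shCtrl array, by a small margin. The difference was 0.18 (CI 0.10 to 0.26, limma adjusted p = 0.00727), a 1.13-fold change that was not called, and the gene has 1 probe set. ATF5, a relative whose mRNA is also translated under eIF2 phosphorylation, read 7.46, 7.27 and 7.47 in epirubicin arrays, against 6.71, 6.72 and 6.74 in shCtrl arrays. It rose 1.60-fold (log2 0.68, SE 0.06, limma adjusted p = 0.000426), and all 4 of its probe sets were called higher.

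DDIT3, a C/EBP family member induced by ATF4 that promotes death under lasting stress, read 6.852, 6.997 and 7.024 in epirubicin arrays, against 5.401, 5.330 and 5.528 in shCtrl arrays. The groups lay more than 1 log2 unit apart, and the gene ranked 28 of 17534 by size of change (log2 1.54, SE 0.07, limma adjusted p = 3.45e-05). Its other probe set rose by 1.66. PPP1R15A read 7.87, 7.68 and 7.82 in epirubicin arrays, against 6.95, 6.91 and 6.98 in shCtrl arrays. It rose by 0.84 (SE 0.05, limma adjusted p = 0.000123), whereas its constitutive relative PPP1R15B differed by -0.03 (CI -0.13 to 0.08), with 0 of 4 probe sets called. The difference between the changes of these relatives was not tested.

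Of the dimerization partners, CEBPB read 7.949, 7.937 and 8.005 in epirubicin arrays, against 7.414, 7.520 and 7.464 in shCtrl arrays. It rose 1.41-fold (log2 0.50, SE 0.04, limma adjusted p = 0.000312). CEBPG, which pairs with ATF4 at amino acid response elements, differed by 0.28 (CI 0.18 to 0.38) and was not called; its second probe set differed by 0.06. TRIB3, a pseudokinase that ATF4 and CHOP induce and that restrains ATF4 in turn, read 8.23, 8.28 and 8.20 in epirubicin arrays, against 7.94, 7.92 and 7.95 in shCtrl arrays. The groups were apart, but the difference of 0.30 (CI 0.22 to 0.38, limma adjusted p = 0.00121) was 1.23-fold and not called. The second, dimmer TRIB3 probe set differed by 0.10, with overlapping arrays. JDP2, a repressor of AP-1 sites, and the stress cofactor gene NUPR1 had group means below 3.84, the lowest lower quartile of any array, and differed by 0.32 and 0.08. In all, 4 of these 14 sensing and transcription genes were called higher (28.6%) and 0 lower, beside 4.36% and 2.14% of all genes. The median of the 14 was 0.29.

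**Figure D2:**
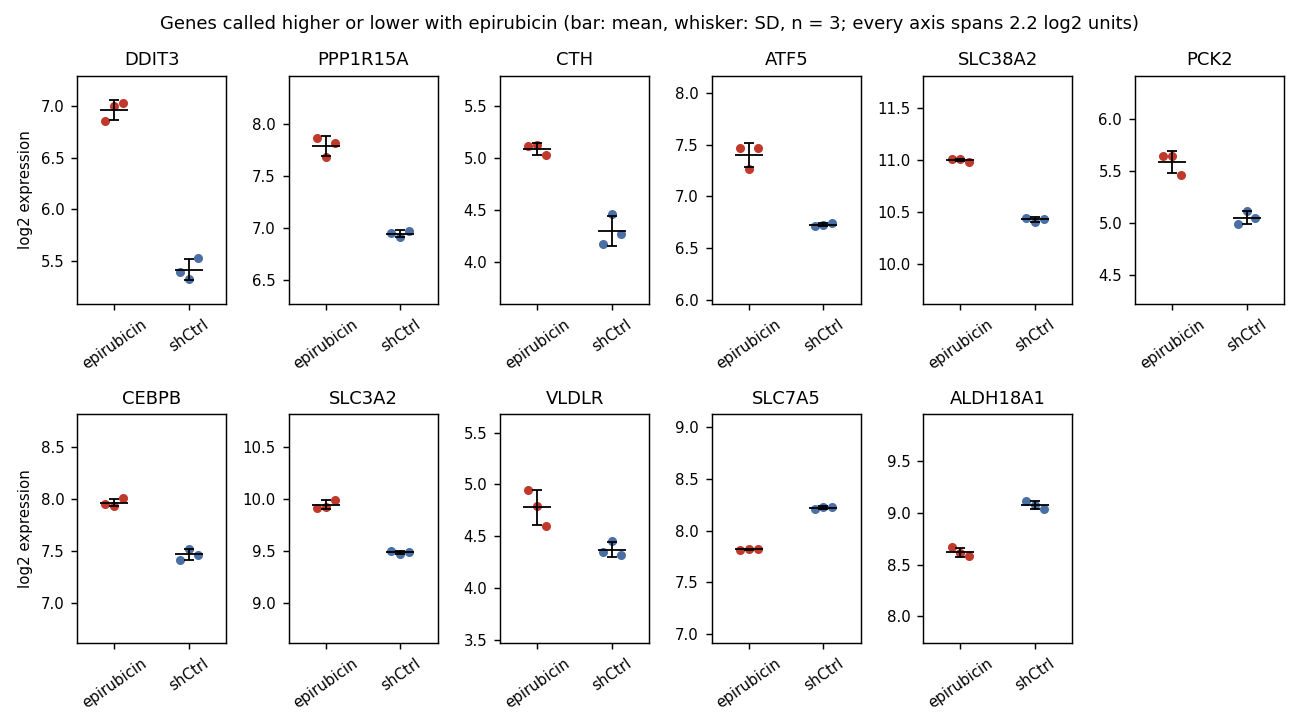
Log2 expression of the 11 called genes (vertical axis, spanning 2.2 log2 units in each panel) in the 3 epirubicin arrays (left) and the 3 shCtrl arrays (right), with the mean as a bar and the SD as whiskers. Points are arrays, and levels are not comparable between panels, since each gene has its own probe set. The groups are apart in every panel, most widely in DDIT3 and least in VLDLR, where the lowest epirubicin array, at 4.60, lies close to the highest shCtrl array, at 4.45.

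Of 4 further ATF4 targets, 1 was called higher (25%) and 0 lower, beside 4.36% and 2.14% of all genes. CHAC1, which degrades glutathione and is among the most inducible genes of the pathway, read 5.84, 5.85 and 5.85 in epirubicin arrays, against 5.57, 5.34 and 5.57 in shCtrl arrays. Its difference of 0.35 (CI 0.19 to 0.51, limma adjusted p = 0.00812) was 1.28-fold, just under the fold threshold, and it was called without shCtrl replicate 1 or 3, at 0.39 each. VLDLR, a lipoprotein receptor, read 4.94, 4.79 and 4.60 in epirubicin arrays, against 4.35, 4.45 and 4.32 in shCtrl arrays. It rose by 0.41 (SE 0.09, limma adjusted p = 0.0145) and lost its call without epirubicin replicate 1 (0.32, adjusted p = 0.0283) or shCtrl replicate 3 (0.38, adjusted p = 0.0514). ADM2, a peptide hormone gene of the adrenomedullin family, differed by 0.18 on one probe set and 0.33 on the other, and STC2, a secreted glycoprotein gene below the lower quartile, by -0.02.

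Among the transporters SLC38A2 and SLC3A2 rose and SLC7A5 fell. SLC38A2 (SNAT2), a sodium-coupled importer of small neutral amino acids that rises when amino acids are short, read 11.01, 11.01 and 10.99 in epirubicin arrays, against 10.45, 10.41 and 10.43 in shCtrl arrays. The arrays of a group were nearly alike and the groups apart (log2 0.57, SE 0.03, limma adjusted p = 6.25e-05), and all 3 probe sets were called higher. SLC38A1, a transporter of the same family, differed by 0.14 (CI 0.07 to 0.21), and its 5 probe sets ran from -0.15 to 0.14 with 0 called.

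SLC3A2 (4F2hc, CD98) is the heavy chain that carries several light chains to the cell surface, among them SLC7A5 (LAT1), the exchanger of large neutral amino acids, and SLC7A11 (xCT), the cystine importer. SLC3A2 read 9.92, 9.93 and 10.00 in epirubicin arrays, against 9.50, 9.47 and 9.50 in shCtrl arrays. It rose 1.38-fold (log2 0.46, SE 0.04, limma adjusted p = 0.000239), and all 7 of its probe sets were called higher. SLC7A5 read 7.81, 7.83 and 7.82 in epirubicin arrays, against 8.20, 8.23 and 8.23 in shCtrl arrays. It was thus lower on every epirubicin array, 1.32-fold (log2 -0.40, CI -0.47 to -0.33), the opposite direction from its heavy chain. Its second probe set, at 6.17, 5.98 and 6.02 in epirubicin arrays and 6.23, 6.14 and 6.12 in shCtrl arrays, differed by -0.11 and overlapped between groups. The mean over both, -0.25, was not called.

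SLC7A11 depended on the probe set. The brightest read 6.97, 6.97 and 6.98 in epirubicin arrays, against 6.90, 6.93 and 6.87 in shCtrl arrays, a difference of 0.07 (limma adjusted p = 0.131 over genes). A second read 6.30, 6.03 and 6.02 in epirubicin arrays, against 5.30, 5.44 and 5.27 in shCtrl arrays, and was called higher at 0.78 (SE 0.09, limma adjusted p = 0.00118 over all probe sets). The third, dimmer still, was called higher at 0.76, with 4.48, 4.77 and 4.63 in epirubicin arrays against 3.97, 3.72 and 3.93 in shCtrl arrays. The mean over all 3 probe sets was 0.54 and called higher. Where in the transcript each probe set lies is not given in the sources used here.

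SLC1A5 (ASCT2), an exchanger that brings in glutamine, was lower on every epirubicin array, with a difference of -0.26 (CI -0.33 to -0.19, limma adjusted p = 0.00112) that was under the fold threshold, and its 3 probe sets ran from -0.26 to -0.15. The serine and alanine exchanger SLC1A4 differed by -0.07, the arginine and lysine importer SLC7A1 (CAT1) by -0.09 and the neutral amino acid transporter SLC43A1 (LAT3) by -0.01. SLC6A9, the glycine transporter GLYT1, had overlapping arrays and differed by 0.19 (CI -0.003 to 0.38). In total 2 of the 10 transporters were higher, 1 lower and 7 neither, with a median of 0.03. That is 20% called higher and 10% called lower, beside 4.36% and 2.14% of all genes.

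**Figure D3:**
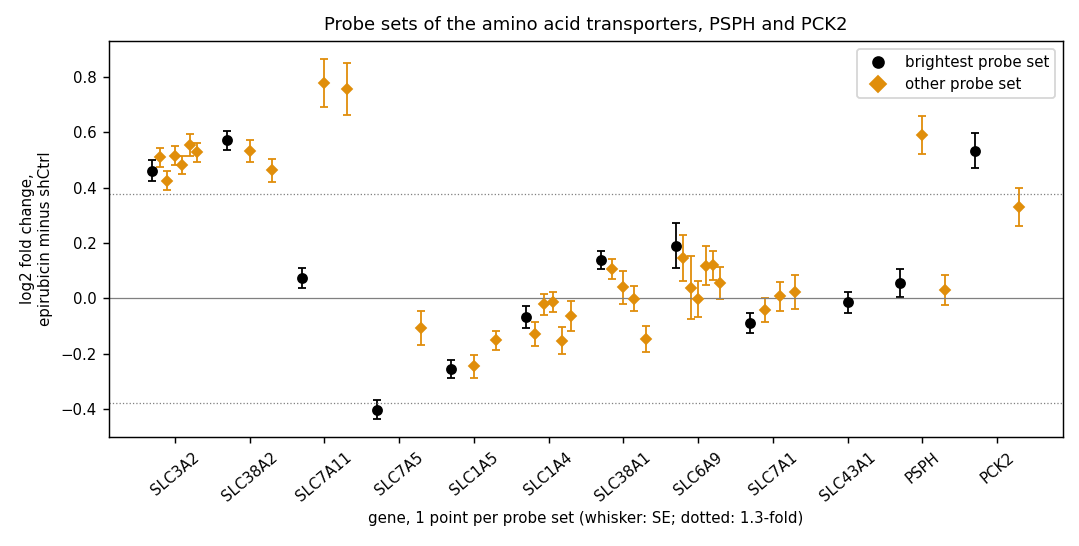
Each point is 1 probe set of a transporter gene, PSPH or PCK2, placed by its log2 fold change, epirubicin minus shCtrl (vertical axis), with its SE as whiskers. Black circles mark the brightest probe set, used for the gene, and orange diamonds the others. The 7 SLC3A2 and 3 SLC38A2 probe sets lie together above the dotted line at 1.3-fold, while those of SLC7A11 split between 0.07 and 0.78.

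Of the 11 measured synthesis and one-carbon enzymes, CTH had the largest change. It read 5.11, 5.13 and 5.02 in epirubicin arrays, against 4.17, 4.46 and 4.27 in shCtrl arrays, all below the median of all values, on its 1 probe set. It rose by 0.79 (SE 0.08, limma adjusted p = 0.000578). Probe sets that name CBS and a second locus were not counted. Their largest differences were 0.94 (limma adjusted p = 0.00121 over all probe sets) and 0.91 (limma adjusted p = 0.000944). The others differed by 0.06 to 0.18, and these probe sets cannot tell the loci apart. PCK2, the mitochondrial phosphoenolpyruvate carboxykinase, read 5.64, 5.65 and 5.46 in epirubicin arrays, against 4.99, 5.11 and 5.05 in shCtrl arrays. It rose 1.45-fold (log2 0.53, SE 0.06, limma adjusted p = 0.00122), with its second probe set at 0.33 and not called.

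Of the enzymes of proline synthesis, ALDH18A1 fell and PYCR1 was not called. ALDH18A1, which makes the first committed intermediate from glutamate, read 8.66, 8.61 and 8.58 in epirubicin arrays, against 9.11, 9.08 and 9.04 in shCtrl arrays. It fell by 0.46 on the log2 scale (SE 0.04, limma adjusted p = 0.000332), on both of its probe sets. PYCR1, which completes proline in mitochondria, lay lower on every epirubicin array, at 7.67, 7.70 and 7.70, against 7.93, 8.01 and 7.89 in shCtrl arrays. Its difference of -0.25 (CI -0.35 to -0.16, limma adjusted p = 0.00405) was not called, and 5 of its 6 probe sets had the same sign.

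Of the enzymes of serine and asparagine synthesis, 0 were called on the probe sets used. ASNS, asparagine synthetase, read 10.01, 9.97 and 10.03 in epirubicin arrays, against 9.78, 9.88 and 9.84 in shCtrl arrays, a difference of 0.17 (CI 0.07 to 0.26). PSAT1, the serine pathway aminotransferase, read 9.69, 9.63 and 9.67 in epirubicin arrays, against 9.44, 9.47 and 9.46 in shCtrl arrays, a difference of 0.21 (CI 0.13 to 0.28). Its 8 probe sets ran from 0.14 to 0.21, so the small size did not rest on the choice of probe set. PHGDH, the first enzyme of the serine pathway, read 8.07, 8.10 and 7.98 in epirubicin arrays, against 7.89, 7.86 and 7.87 in shCtrl arrays, a difference of 0.18 (CI 0.08 to 0.27). A brighter probe set that also names MZT2B, and so was not used, differed by -0.08 (limma adjusted p = 0.136 over all probe sets). For ASNS, PSAT1 and PHGDH the groups were apart on the probe sets used, and a 1.3-fold increase lay outside each interval. PSPH, the last enzyme of the pathway, had overlapping arrays on the brightest of its 3 probe sets, with a difference of 0.06 (CI -0.06 to 0.17, limma adjusted p = 0.462), but another was called higher at 0.59, with 8.23, 8.07 and 8.06 in epirubicin arrays against 7.53, 7.43 and 7.62 in shCtrl arrays.

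The mitochondrial one-carbon enzymes did not pass. MTHFD2 read 10.75, 10.75 and 10.73 in epirubicin arrays, against 10.73, 10.72 and 10.71 in shCtrl arrays, a difference of 0.03 (CI -0.04 to 0.10). SHMT2, which splits serine into glycine and a one-carbon unit, read 9.21, 9.30 and 9.26 in epirubicin arrays, against 9.38, 9.33 and 9.33 in shCtrl arrays, a difference of -0.09 (CI -0.18 to -0.003). In ALDH1L2, which oxidizes formyl-folate, the groups overlapped at 4.26 to 4.59 in epirubicin arrays and 4.38 to 4.52 in shCtrl arrays. Of 11 measured enzymes 2 were higher, 1 lower and 8 neither, with a median of 0.06. That is 18.2% called higher and 9.09% called lower, beside 4.36% and 2.14% of all genes.

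**Figure D4:**
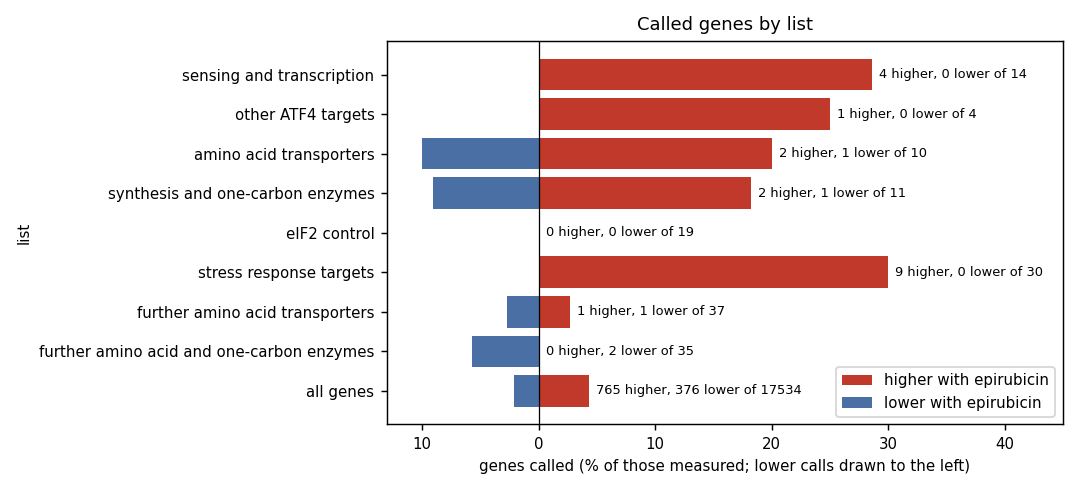
Share of the measured genes called higher (red, to the right) and lower (blue, to the left) with epirubicin, in percent (horizontal axis), for the 4 role groups, the 4 further pathway lists and all genes. The sensing group and the stress response targets have the longest bars to the right, at 28.6% and 30.0%, beside 4.36% of all genes, and the eIF2 control list has none. The role groups and further lists were chosen with earlier results of these data known.

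Other genes of the pathway were counted from 4 further lists of 127 genes, of which 121 were measured, 10 called higher and 3 lower. That is 8.26% and 2.48%, beside 4.36% and 2.14% of all genes. The lower count was 5 without epirubicin replicate 2 and 7 after median centring of each array. The lists were chosen with earlier results of these data known, so shares of calls in them are descriptive. All the higher calls but 1 fell in the list of stress response targets, where 9 of 30 were called higher and 0 lower. That list's median was 0.23. The 8 largest were ATF3 (2.56), SESN2 (1.70), GADD45A (1.40), NIBAN1 (1.33), TNFRSF10B (1.28), CREBRF (1.04), VEGFA (0.70) and DDIT4 (0.48), and the limma adjusted p of all 9 ran up to 0.000848. For ATF3 4 of 7 probe sets were called higher and for VEGFA 3 of 10, while every probe set of the other 6 named genes was. Several of them are also known targets of p53 (SESN2, GADD45A, TNFRSF10B, DDIT4), so the list is not specific to ATF4. The list holds 12 cytosolic aminoacyl-tRNA synthetases, which charge tRNA and which ATF4 also induces. Of these 0 were called, and their log2 fold changes ran from -0.28 (WARS1) to 0.28 (SARS1) with a median of 0.03, but they went both ways, with 3 higher and 5 lower at an adjusted p under 0.05 and any fold. By that measure 17 of the 30 genes of the list were higher (56.7%) and 6 lower (20.0%). Of all genes, not matched for expression level, 15.6% were higher and 13.5% lower. The sixth lower gene of the list was XPOT, which exports tRNA from the nucleus.

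In the list of eIF2 control, which holds subunits of eIF2, its exchange factor eIF2B and regulators of the kinases, 0 of 19 genes were called. Over all genes, 4.36% were called higher and 2.14% lower. At an adjusted p under 0.05 and any fold, 8 of the 19 were lower (42.1%) and 0 higher. That stands beside 13.5% of all genes, a share not matched for expression level. The largest differences were EIF2B3, a subunit of eIF2B, at -0.36 (SE 0.04) and GCN1, an activator of EIF2AK4, at -0.27 (SE 0.03). Among 37 further amino acid transporters 1 was called higher and 1 lower, or 2.7% each, near the 4.36% and 2.14% of all genes. SLC7A6, another light chain partner of SLC3A2, was higher (0.43, SE 0.04, limma adjusted p = 0.000649, on 1 of 3 probe sets). The aromatic amino acid transporter SLC16A10 was lower (-0.39, SE 0.05, limma adjusted p = 0.00135, on 1 of 2 probe sets). Among 35 further enzymes measured, 0 were higher, beside 4.36% of all genes, and 2 lower, or 5.71%, beside 2.14%. The lower 2 were GLDC, the decarboxylase of the glycine cleavage system (-0.53, SE 0.03, limma adjusted p = 0.000132), and SLC25A32, the mitochondrial folate carrier (-0.45, SE 0.05, limma adjusted p = 0.00132), both on each of their 2 probe sets. At any fold, 12 of these 35 were lower and 5 higher at an adjusted p under 0.05. That is 34.3% and 14.3%, beside 13.5% and 15.6% of all genes, again not matched for expression level.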

How the data were processed

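Values were the authors' deposited log2 expression values for 47481 probe sets on 6 arrays. That scale was inferred from their range, and the affy package is the tool that the submitters' processing notes name, without a version. No source used here gives background correction or normalization, and changes are relative to the bulk of transcripts. Of the probe sets 43976 had 1 symbol in the platform annotation, 1558 several and 1947 none, and 43954 matched RefSeq (GRCh38.p14) by Entrez number. Per gene, the probe set brightest over 6 arrays was kept. Groups and replicate numbers came from the titles. limma 3.58.1 in R 4.3.3 (lmFit, eBayes, no covariate) gave adjusted p-values (Benjamini-Hochberg, 17534 genes). A separate fit covered all 47481 probe sets. Differences are epirubicin minus shCtrl. The thresholds are those of the series' design text. Tested on simulated data, with 200 of 17534 genes changed, the fit recovered 35.7% at 1.3-fold, 84.8% at 1.5-fold and 97.7% at 2-fold. A change of 1.3-fold lies at the fold threshold itself, which limits its recovery. Far more than 200 genes passed the adjusted p in these data, so its cut-off differs from the simulated one. The members and lists were chosen with earlier results of these data known. Every member is accounted for. Values per array were to be given for called members and 12 preset ones, and called pathway genes named up to 8 per list. Those of EIF2AK4, PYCR1 and a PSPH probe set, and the names EIF2B3, GCN1, XPOT, WARS1 and SARS1, were added after values were seen. The number of arrays limits the precision. The 15 alternatives tried are given at the end.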

Additional observations from a re-analysis of the deposited data

How the results depend on the processing

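Over 14 alternatives that give values per gene, 510 of 540 member values kept their direction and their side of the threshold, 12 lost a call, 3 gained one and 15 changed sign. Those 15 belong to 6 genes that were not called, and each lay within 0.029 of 0. With the mean of probe sets the values were 0.0200 (PPP1R15B), 0.0075 (STC2) and -0.0032 (ALDH1L2), with the probe set brightest in shCtrl arrays -0.024 (MTHFD2), under quantile normalization 0.0183 (EIF2AK1) and -0.0039 (ALDH1L2), and under median centring -0.0070 (MTHFD2) and -0.0025 (ALDH1L2). Leaving out 1 array gave ranges across 0 of -0.0287 to 0.139 (ALDH1L2), -0.0446 to 0.0225 (STC2), -0.0153 to 0.0036 (EIF2AK1) and -0.0304 to 0.0021 (SLC43A1). Choosing the probe set brightest in shCtrl arrays, or eBayes with trend and robust, changed the call of 0 members. With the mean of a gene's probe sets SLC7A5 lost its call and SLC7A11 gained one, leaving 1 member lower. Quantile normalization also left 1 lower, as SLC7A5 (-0.38) and VLDLR (0.38) fell just short of the fold threshold, and VLDLR was also lost under median centring (0.37). Median centring of each array moved the pathway genes called lower to 7, and gave 646 genes higher and 485 lower, beside 765 and 376 in the main fit. Among genes above the median of all values, CTH and VLDLR were not tested. Without a fold threshold 2744 genes were higher and 2362 lower, among them 20 and 5 members and 28 and 30 pathway genes. Under limma's treat, which tests against 1.3-fold itself, 272 genes were higher and 91 lower, with 5 members higher and 0 lower, and 0 pathway genes lower. DDIT3, PPP1R15A, ATF5, SLC38A2 and CTH kept their call there. Leaving out 1 array in turn gave 723 to 807 genes higher and 363 to 404 lower, 8 to 10 members higher and 2 lower, and 10 to 12 pathway genes higher and 2 to 5 lower, with 5 without epirubicin replicate 2. With the replicate number as a block, 755 genes were higher and 372 lower, and 9 and 2 members, all 11 members shared with the fit without it. Same-numbered arrays had correlations of deviations of -0.03, 0.02 and 0.001, so the numbers were not taken to pair the arrays. Without detection calls, genes below the array quartile (JDP2, NUPR1, STC2) limit what can be read.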
